A study of Mus musculus with 26 samples.

Results

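Pth1r and Fgfr2 are receptors of bone-forming cells, and they were followed over all 26 arrays of a study of mouse osteosarcoma, a malignant tumour of the osteoblast lineage. Every probe set that the platform's annotation gives to either gene was taken. This gave 4 of the 45101 probe sets: 1 for Pth1r (1417092_at) and 3 for Fgfr2 (1433489_s_at, 1420847_a_at and 1443211_at). All 4 were among the 27308 probe sets that passed the filter on dim signals, an intensity above the median of all values (52.6) on at least 3 arrays. The groups were 4 osteosarcoma cell lines (176, 179, 182 and 213), 4 secondary tumours (29, 64, 66 and 94), 15 primary osteosarcomas and 3 wild-type primary osteoblast cultures differentiated in vitro, each sample on its own array. Secondary tumours 29, 64 and 94 are labelled as transplants. Number 66 is labelled as tumour tissue derived from a cell line, although its title says cell line, and is counted here among the secondary tumours. The labels give no genotype, strain, age or driver of the tumours, and they do not say whether the osteoblast cultures came from separate animals. Tests against the cultures may therefore rest on a technical spread.

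Pth1r is a G-protein-coupled receptor for parathyroid hormone (PTH) and for PTH-related protein. In osteoblasts and osteocytes it signals through cyclic AMP and protein kinase A and through phospholipase C, and it controls both bone formation and, by way of the osteoclast cytokine RANKL, bone resorption. Fgfr2 is a receptor tyrosine kinase for fibroblast growth factors (FGFs), and it acts with heparan sulfate proteoglycans on the cell surface to switch on the MAP kinase pathway. Activating mutations of the human gene close the sutures of the skull too early.

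In the RefSeq annotation of mouse assembly GRCm38.p6, Pth1r lies on the minus strand of chromosome 9 (chr9:110722085-110747145) and Fgfr2 on the minus strand of chromosome 7 (chr7:130162451-130266808), each with 3 curated mRNAs. Pth1r has 3 annotated starts in the RefSeq promoter table and Fgfr2 has 1. A single probe set reads Pth1r, so its values cannot be assigned to any one of these starts. The promoter windows are shown because both genes were lower in the cell lines than in the primary tumours, as described below. Each window runs 5′ to 3′ from 250 bases before the start to 50 bases after it, and capitals mark GC boxes (GGGCGG), searched on both strands.
Fgfr2, chr7:130266759-130267058: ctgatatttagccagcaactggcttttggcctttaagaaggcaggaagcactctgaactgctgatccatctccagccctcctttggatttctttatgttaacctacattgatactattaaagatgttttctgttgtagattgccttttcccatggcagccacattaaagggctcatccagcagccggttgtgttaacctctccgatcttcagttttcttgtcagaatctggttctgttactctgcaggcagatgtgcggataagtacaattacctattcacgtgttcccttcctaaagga
Pth1r outermost start, chr9:110747096-110747395: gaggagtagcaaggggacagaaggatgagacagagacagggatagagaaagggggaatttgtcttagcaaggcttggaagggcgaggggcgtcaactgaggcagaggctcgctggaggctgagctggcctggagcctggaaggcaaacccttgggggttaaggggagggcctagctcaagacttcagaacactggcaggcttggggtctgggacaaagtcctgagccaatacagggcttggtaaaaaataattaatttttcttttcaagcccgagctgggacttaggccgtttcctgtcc
Pth1r middle start, chr9:110743637-110743936: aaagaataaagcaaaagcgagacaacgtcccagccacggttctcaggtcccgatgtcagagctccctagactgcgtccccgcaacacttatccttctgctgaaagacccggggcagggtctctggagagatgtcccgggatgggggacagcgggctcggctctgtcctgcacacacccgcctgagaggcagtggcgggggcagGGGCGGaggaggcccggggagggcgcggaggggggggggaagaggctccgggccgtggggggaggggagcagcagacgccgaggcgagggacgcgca
Pth1r start nearest the gene's 3′ end, chr9:110742561-110742860: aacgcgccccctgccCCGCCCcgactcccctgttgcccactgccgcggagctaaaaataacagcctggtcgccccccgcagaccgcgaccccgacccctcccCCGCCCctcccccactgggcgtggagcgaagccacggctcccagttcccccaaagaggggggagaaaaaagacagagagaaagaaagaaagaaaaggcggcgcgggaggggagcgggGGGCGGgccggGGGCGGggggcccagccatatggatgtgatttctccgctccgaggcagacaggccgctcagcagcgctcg
The Pth1r window nearest the 3′ end holds 4 GC boxes at 69.3% G and C and the middle one 1 at 68.0%, whereas the outermost Pth1r window (54.3%) and the Fgfr2 window (43.7%) hold 0. A GC box is found in 35.7% of all 32851 promoter windows of the same length. The RUNX letters TGTGGT occur in 16.8% of all windows, the core promoter letters TATAAA in 13.6% and the AP-1 letters TGANTCA in 7.81%, and in 0 of these 4 windows on either strand. These matches describe letters only.

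The arrays differed between groups in ways other than these genes. Array medians were 44.4 to 48.2 in cell lines, 54.9 to 58.1 in secondary tumours, 50.4 to 58.8 in primary tumours and 46.4 to 48.2 in osteoblast cultures. The ratio of the bacterial hybridisation controls bioB and bioC parted the arrays into 3 control sets. Set 1 held 7 primary and all 4 secondary tumours (0.356 to 0.385), set 2 the 3 osteoblast cultures alone (0.424 to 0.448), and set 3 the 4 cell lines with 8 primary tumours (0.993 to 1.05). In every comparison with osteoblasts, and in lines against secondary tumours, control set and group cannot be told apart. Lines and secondary tumours share no control set, so a fit with the control set as covariate links them only through the primary tumours. Macrophage markers (18 genes, summed intensity) ranged from 838 to 1117 in lines, 7051 to 21743 in secondary tumours, 6720.2 to 35507 in primary tumours and 1008 to 1075 in osteoblasts, and 2 of them were at the floor on every line and every culture. Endothelial markers (15 genes) summed to 1079.8 to 1287, 1781 to 4400.0, 2226 to 4299.6 and 1181 to 1446 in the same groups, with 0 at the floor throughout a group. Adipocyte markers (9 genes) summed to 30333 to 31168 in the osteoblast cultures and to at most 4760.1 on any other array. The osteoblast identity markers (17 genes) summed to 38469 to 58257 in lines, 68897 to 79183 in secondary tumours, 53229 to 83891 in primary tumours and 61659 to 68105 in osteoblasts, and 0 of them were at the floor throughout the cultures. Skeletal muscle markers (15 genes) summed to 665 to 18500.0 in lines, 448 to 603 in secondary tumours, 494 to 48581 in primary tumours and 660.4 to 671 in osteoblasts, where 5 of them were at the floor on every array. In such bulk samples, fewer cells of a type and less RNA per cell cannot be told apart.

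Pth1r was higher in tumours than in cultured osteoblasts and lower in the cell lines than in every tumour. Its intensity was 604.8 in cell line 176, 208 in line 179, 421 in line 182 and 169 in line 213. The secondary tumours had 661.7 (29), 2517 (64), 1416 (66) and 1461 (94). Among the 15 primary tumours it ran from 789.7 (330) through a median of 1688 to 2828 (94). The osteoblast cultures had 556, 592 and 536. All 15 primary and all 4 secondary tumours stood above the 3 cultures, and of the lines only 176 did. On the log2 scale the group means were 8.27 ± 0.86 in lines (SD, n = 4), 10.41 ± 0.79 in secondary tumours (n = 4), 10.69 ± 0.48 in primary tumours (n = 15) and 9.13 ± 0.07 in osteoblast cultures (n = 3). The osteoblast cultures spread least and the cell lines most, and limma pools the spread of all groups.

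**Figure D1:**
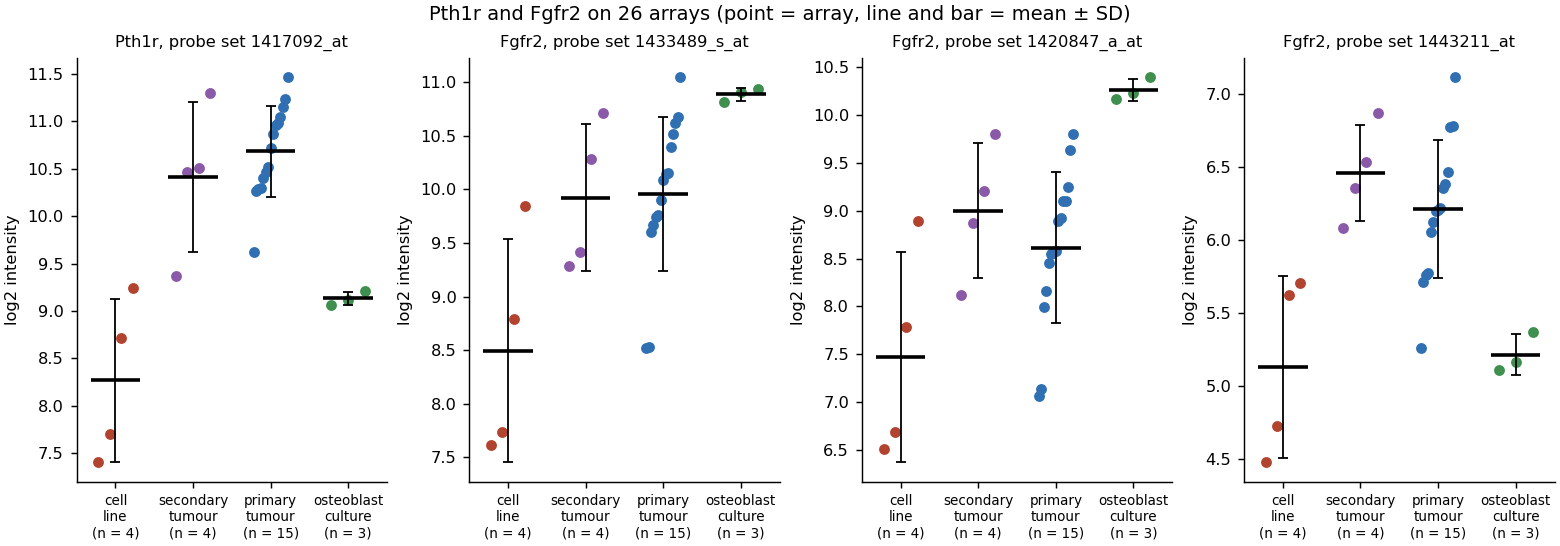
Log2 intensity of the Pth1r probe set and the 3 Fgfr2 probe sets (vertical axes, each on its own scale) on every array, by group; points are arrays, and lines with bars are group means ± SD. Pth1r in the 15 primary and 4 secondary tumours lies above the 3 osteoblast cultures, Fgfr2 1420847_a_at lies below them in all tumours and lines, and 1443211_at lies above them in 14 primary tumours and all 4 secondary tumours.

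Against osteoblasts, Pth1r rose 2.94-fold in primary tumours (log2 difference 1.55, SE 0.349, limma adjusted p = 0.000791, higher in 15 of 15). In this comparison 22.2% of all probe sets were called (adjusted p below 0.05 and at least 2-fold), 11% as higher, and 12.9% were higher with no overlap between the groups. The call was the same with primary tumours of control set 1 alone (1.61, adjusted p = 0.00263) and of control set 3 alone (1.50, adjusted p = 0.00501). Secondary tumours were 2.43-fold higher than osteoblasts (log2 difference 1.28, SE 0.421, limma adjusted p = 0.0181, higher in 4 of 4), where 22.9% of all probe sets were called, 12.9% as higher, and 30.4% were higher with no overlap. That call was lost without secondary tumour 64 (0.98, adjusted p = 0.0736) and without osteoblast culture 3 (1.25, adjusted p = 0.0523). The cell lines differed from osteoblasts by −0.87 (SE 0.421, limma adjusted p = 0.187), and the groups overlapped, with 3 lines below the cultures and 1 above. Here 7.35% of all probe sets were called. The macrophage and endothelial marker sums were also higher in all tumours than in the cultures, and the adipocyte sum was lower. The part of these cells in the Pth1r difference was not tested.

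Of the 4 probe sets, Pth1r differed most between lines and tumours. It was 5.35-fold lower in the lines than in primary tumours (log2 difference −2.42, SE 0.310, limma adjusted p = 1.82e-06) and 4.43-fold lower than in secondary tumours (−2.15, SE 0.390, adjusted p = 0.000202), with no overlap in either comparison. Of all probe sets, 15.3% were called between lines and primary tumours, 10.8% as lower, and 7.89% were lower with no overlap. Between lines and secondary tumours the shares were 17.6%, 12.9% and 24.8%. Within control set 3, which holds the 4 lines and 8 of the primary tumours, the difference was −2.37 (limma adjusted p = 0.000101). Macrophage markers (median log2 difference −4.16, 18 of 18 called lower) and endothelial markers (−1.84, 10 of 15 called lower) also differed in lines against primary tumours. Their part in it was not tested. Secondary and primary tumours overlapped and differed by −0.27 (SE 0.310, limma adjusted p = 0.779), a difference smaller than its error. Only 0.00732% of all probe sets, 2 of 27308, were called there. limma called 4 (1 higher and 3 lower) when each secondary tumour was paired with the primary tumour of its number.

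On its brightest probe set, 1433489_s_at, which is taken as leading, Fgfr2 had its lowest group mean in the cell lines and, unlike Pth1r, its highest in the osteoblast cultures. It read 917 in line 176, 213 in line 179, 443 in line 182 and 196 in line 213. Secondary tumours had 681.8 (29), 1243 (64), 623 (66) and 1674 (94). Primary tumours ran from 366 (330) through a median of 1087 to 2112 (176). The osteoblast cultures had 1806, 1919 and 1959. All lines, all secondary tumours and 14 of 15 primary tumours lay below the cultures, and primary tumour 176 lay above them. Group means on the log2 scale were 8.50 ± 1.04 in lines, 9.92 ± 0.69 in secondary tumours, 9.96 ± 0.71 in primary tumours and 10.89 ± 0.06 in osteoblasts (SD, n = 4, 4, 15 and 3).

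The leading Fgfr2 probe set fell 5.24-fold in the lines against osteoblasts (log2 difference −2.39, SE 0.529, limma adjusted p = 0.00325), where 5.82% of all probe sets were called as lower and 24.3% were lower with no overlap. It fell 2.75-fold in the lines against primary tumours (−1.46, SE 0.390, adjusted p = 0.0043), although lines 176 and 182 lay within the range of the primary tumours. The call was kept within control set 3 (−1.41, limma adjusted p = 0.0297). Against secondary tumours the lines were lower by 1.43 on the log2 scale (SE 0.490, limma adjusted p = 0.0262). This last call was lost without cell line 179 (−1.17) or 213 (−1.13), without secondary tumour 64 (−1.31) or 94 (−1.16), with arrays scaled to a common 75th percentile (−1.27, adjusted p = 0.0504), with only both groups in the fit (−1.43, adjusted p = 0.0599) and with the control set as a covariate (−1.31, adjusted p = 0.194). Against osteoblasts, secondary tumours differed by −0.97 (SE 0.529, limma adjusted p = 0.150, 4 of 4 below, where 24.5% of all probe sets were lower with no overlap) and primary tumours by −0.93 (SE 0.438, limma adjusted p = 0.0839), and neither passed. Secondary and primary tumours differed by −0.04 (SE 0.390, limma adjusted p = 0.983).

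**Figure D2:**
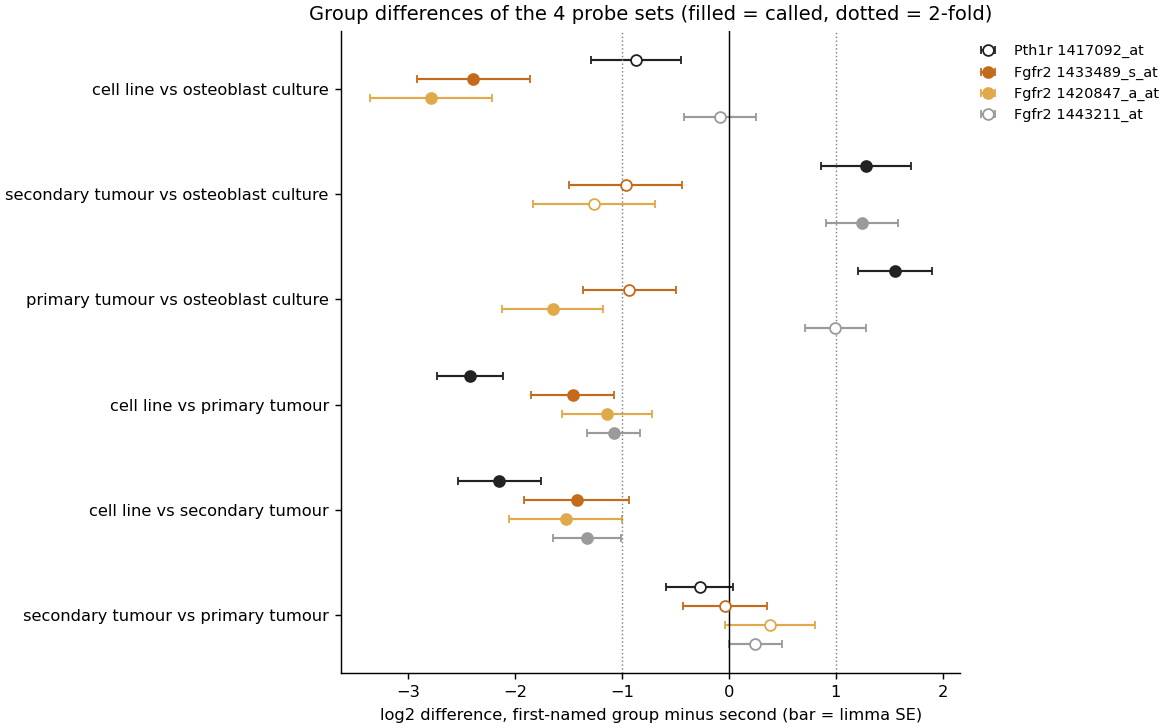
Log2 difference of each probe set (horizontal axis, first-named group minus the second, bars are limma's SE) in the 6 comparisons; filled points were called and dotted lines mark 2-fold. All 4 probe sets lie to the left in cell lines against primary and secondary tumours, whereas against osteoblasts Pth1r and Fgfr2 1443211_at lie to the right in both kinds of tumour and the other 2 Fgfr2 probe sets lie to the left.

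The 3 Fgfr2 probe sets did not give one picture. In the naming of these arrays, the ending _a marks probes shared by several transcripts of one gene and _s marks probes shared by several transcripts that may come from related genes. Which exons the probes read is not given in the sources used here. Probe set 1420847_a_at read 474 (176), 91.6 (179), 221 (182) and 104 (213) in the lines. It read 469 (29), 591 (64), 277 (66) and 890.3 (94) in secondary tumours, 134 to 892 with a median of 382 in primary tumours, and 1199, 1151 and 1343 in osteoblasts. Every tumour and line lay below the cultures. Secondary tumours differed from the cultures by −1.26 (SE 0.572, limma adjusted p = 0.0809) and did not pass. In that comparison 24.5% of all probe sets were lower with no overlap. On this probe set the fall in primary tumours against osteoblasts was called (log2 difference −1.65, SE 0.473, limma adjusted p = 0.00608), where 11.1% of all probe sets were called as lower and 15.2% were lower with no overlap. The call in lines against osteoblasts was kept (−2.79, SE 0.572, adjusted p = 0.00163). Lines were also called lower than primary tumours (−1.14, SE 0.421, adjusted p = 0.0323) and secondary tumours (−1.53, SE 0.529, adjusted p = 0.0272). The call against primary tumours was lost without line 179 (−0.82) or 213 (−0.88), with no filter (−1.14, adjusted p = 0.0555) and with pairing by number (−1.65, adjusted p = 0.0569). For lines, pairing kept only 176, 179 and 182 and the primary tumours of those numbers. In such fits pairing and fewer arrays cannot be told apart. The call against secondary tumours was lost without line 179 (−1.21) or 213 (−1.27) or secondary tumour 64 (−1.46) or 94 (−1.26), with 75th percentile scaling (−1.37, adjusted p = 0.0503) and with only both groups in the fit (−1.53, adjusted p = 0.0547). With the control set as a covariate both calls of probe set 1420847_a_at were lost (−1.12 and −1.49).

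Probe set 1443211_at was dim, and its values in tumours lay above those in osteoblasts. Its intensity was 52.1 (176), 49.2 (179), 26.4 (182) and 22.3 (213) in the lines. Secondary tumours had 67.7 (29), 92.4 (64), 81.7 (66) and 117 (94), primary tumours 38.3 to 138 with a median of 73.9, and the osteoblast cultures 34.5, 41.4 and 35.8. All lines and all cultures lay below the intensity of 52.6 that the filter asks for, so the probe set entered the tests through the tumours alone, and its differences below are given as a description. They passed or missed the test in the same way with no filter. Secondary tumours were called higher than osteoblasts (log2 difference 1.24, SE 0.340, limma adjusted p = 0.00536, 4 of 4 above), though not after quantile normalization (0.97). Primary tumours stood 1.00 above osteoblasts (SE 0.282, limma adjusted p = 0.00541, 14 of 15 above all cultures), just under the 2-fold minimum. Lines were lower than primary tumours by 1.08 on the log2 scale (SE 0.251, limma adjusted p = 0.00137), under 2-fold without line 182 (−0.94) or 213 (−0.86), and lower than secondary tumours by 1.33 (SE 0.315, adjusted p = 0.0023). With the control set as a covariate both calls of probe set 1443211_at were lost (−0.81 and −0.74), and that against primary tumours was also lost after quantile normalization (−0.86), with the floor at the 40th percentile (−0.85) and with pairing by number (−0.78, limma adjusted p = 0.229).

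The difference between Fgfr2 probe sets was tested on each array as the log2 value of a probe set minus that of the leading one, with a two-sided exact permutation test over arrays for 12 tests adjusted together. For 1443211_at this quantity was higher by 1.93 in primary tumours than in osteoblasts (adjusted exact p = 0.00735), by 2.21 in secondary tumours (adjusted exact p = 0.049) and by 2.31 in lines (adjusted exact p = 0.049). In lines this came from the leading probe set (−2.39), since 1443211_at itself differed by −0.08 and was dim in both groups. Because 1443211_at passed the filter through the tumours alone, its values here are a description. Its tests cannot decide whether the probe sets disagree. For 1420847_a_at the same quantity was lower by 0.72 in primary tumours than in osteoblasts (adjusted exact p = 0.00735) and by 0.40 in lines (adjusted exact p = 0.049). It was higher by 0.42 in secondary than in primary tumours and by 0.32 in lines than in primary tumours (adjusted exact p = 0.0101 for each). These last tests no longer passed without secondary tumour 29 (0.29) and without cell line 213 (0.28). The exact test treats arrays as unpaired, although the secondary tumours pair with primary tumours by number. The other 5 tests did not pass. For 4 arrays against 3 the smallest exact p is 0.0286, so those tests are lost whenever an array is left out. Among the 15 primary tumours 1433489_s_at and 1420847_a_at ran together (Pearson r = 0.975, on the same arrays), and 1443211_at followed them less closely (r = 0.646 and 0.565). Over all 26 arrays these were 0.956, 0.459 and 0.286. The values of tumours against osteoblasts were thus negative on both brighter probe sets and positive on the dim one, and those of lines against tumours were negative on all 3.

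Samples that share a number with a primary tumour allow a closer look. Cell lines 176, 179 and 182 had Pth1r 3.35-, 5.89- and 5.40-fold lower than the primary tumour of the same number, and leading Fgfr2 2.30-, 5.30- and 3.68-fold lower. Line 176 kept the highest level of both receptors among the lines. Primary tumour 176 had the highest value of all arrays on the leading Fgfr2 probe set. On 1420847_a_at that tumour (892) lay below every osteoblast culture. The secondary tumours gave smaller differences for Pth1r: −1.09 on the log2 scale for number 29, 0.06 for 64, −0.49 for 66 and −0.95 for 94. Leading Fgfr2 differed by −0.26, 0.19, −0.32 and 0.19 in the same order. On 1420847_a_at the secondary tumours 29, 64 and 94 stood 0.89, 0.66 and 0.70 above their primary tumours, and number 66 differed by −0.04. In the paired fit of secondary against primary tumours Pth1r differed by −0.62 (SE 0.207, limma adjusted p = 0.300, lower in 3 of 4), which did not pass.

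**Figure D3:**
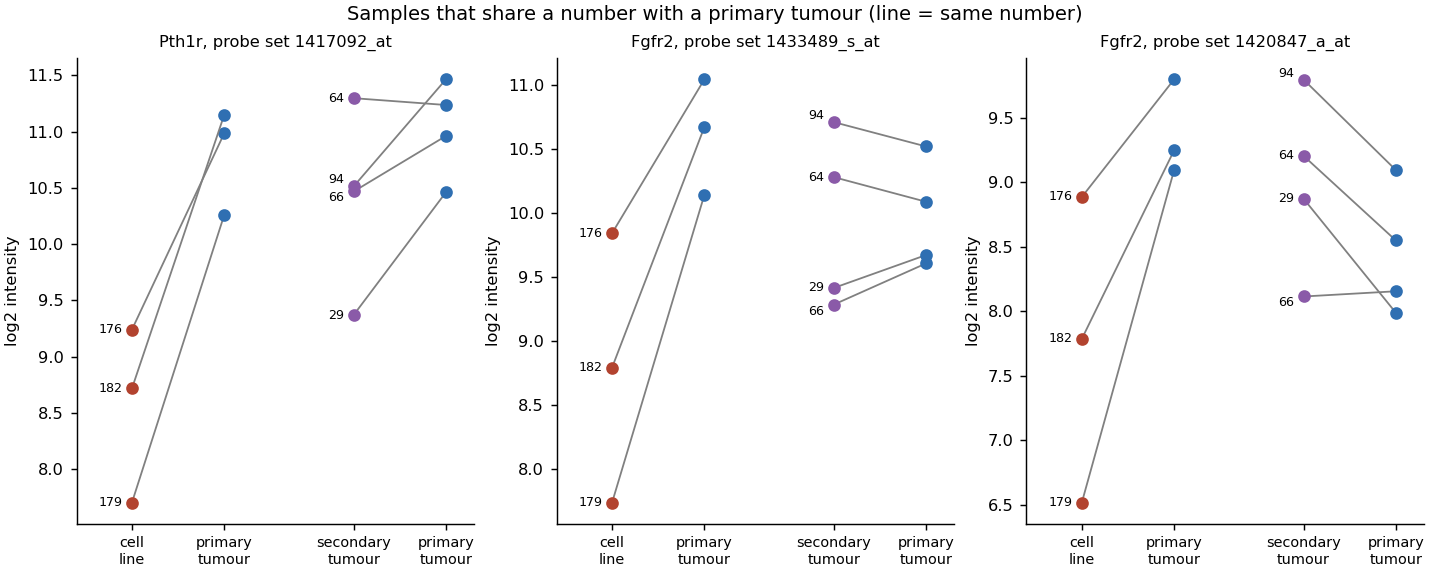
Log2 intensity (vertical axes) of Pth1r and of the Fgfr2 probe sets 1433489_s_at and 1420847_a_at in samples sharing a number with a primary tumour, joined by lines; the cell lines or secondary tumours stand left of the primary tumours. All 3 lines lie below their primary tumours in each panel, and 3 of 4 secondary tumours lie above theirs on 1420847_a_at.

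The receptors were set against each other on single arrays. Primary tumour 330 had the lowest Pth1r (789.7) and the lowest leading Fgfr2 (366) of its group. Primary tumour 183 had Fgfr2 of 369 and Pth1r of 1865, so low Fgfr2 did not always go with low Pth1r. Over 15 primary tumours Pearson's r was 0.514 (permutation p = 0.0494, adjusted p = 0.280 over 17 relations) and Spearman's rho 0.507 (permutation p = 0.0569, adjusted p = 0.675), and r was 0.458 without the 2 tumours farthest from the median Fgfr2. Within control set 1 r was 0.386 (n = 7) and within control set 3 it was 0.590 (n = 8). The relation did not pass the adjustment. Of the other 16 relations, between each receptor and the mean of 8 marker lists, 0 passed. The largest was Fgfr2 with the osteoblast identity list (r = 0.562, permutation p = 0.0393, adjusted p = 0.280), which rested on the 2 farthest tumours (−0.434 without them, and rho 0.0464). Fgfr2 with the skeletal muscle list was close to it (r = 0.531, permutation p = 0.0407, adjusted p = 0.280, rho 0.454). That r was 0.652 without the 2 farthest tumours, 0.195 within control set 1 and 0.722 within control set 3.

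**Figure D4:**
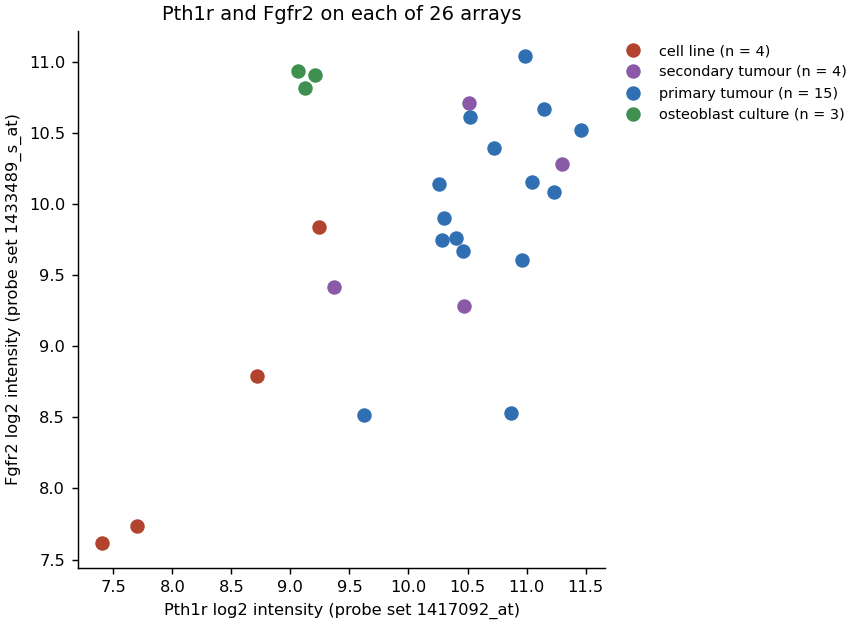
Log2 intensity of Pth1r (horizontal) against the leading Fgfr2 probe set (vertical) on each array, coloured by group. The cell lines lie at the lower left, the primary and secondary tumours to the right, and the 3 osteoblast cultures apart at high Fgfr2 and low Pth1r.

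By correlation over the 26 arrays, the genes most like Pth1r were the axon guidance receptor Robo2 (r = 0.944), the collagen-binding integrin Itga10 (0.909), the cadherin Fat3 (0.900), Raph1 (0.898) and Nipa2 (0.892). Fgfr2 ranked 1811 of 12886 genes by this measure (r = 0.544). The genes most like Fgfr2 were Npr2, the receptor for C-type natriuretic peptide (0.841), Cys1 (0.801), the retinoic acid hydroxylase Cyp26b1 (0.777), Pqlc3 (0.758) and Oma1 (0.745). These values share arrays and group differences and are descriptions. Among the 15 primary tumours alone the leading gene for Fgfr2 was Axin2, a feedback inhibitor of Wnt signalling (r = 0.951), followed by Pdzd2 (0.892), Plekha5 (0.890), Fxyd6 (0.879) and Snx21 (0.877). For Pth1r they were 4632427E13Rik (0.850), Ube2ql1 (0.828), Nectin4 (0.826), Inpp5j (0.814) and Gskip (0.786). No gene was among the top 5 in both sets of arrays for either receptor.

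The PTH pathway around Pth1r was taken from lists, with 1 leading probe set per gene. A gene counts as measured where a probe set naming only that gene passed the filter on dim signals. Listed genes not measured may be dim or lack such a probe set. Of 4 ligands and paralogous receptors only Pth2 was measured, and its differences (−0.21 in secondary and −0.19 in primary tumours against osteoblasts, 0.11 in lines) did not pass. Of 30 measured genes of PTH receptor signalling, 2 fell in lines, 3 rose and 5 fell in secondary tumours, and 2 rose and 7 fell in primary tumours, each against osteoblasts. Over all 12887 genes, 8.01% were called in lines (1.54% higher, 6.47% lower), 18.8% in secondary tumours (7.85% higher, 10.9% lower) and 18.5% in primary tumours (6.63% higher, 11.9% lower). The list's median log2 differences were −0.34, −0.03 and −0.08, beside −0.10, −0.02 and −0.07 over all genes. Ramp2, a membrane protein that modifies such receptors, was 7.28 ± 0.65 in lines, 7.74 ± 0.39 in secondary tumours and 8.10 ± 0.30 in primary tumours, against 10.65 ± 0.15 in osteoblasts (SD of log2 intensity). Its differences were −3.36, −2.91 and −2.54 (limma adjusted p = 4.02e-09, 2.55e-08 and 5.08e-09). Sik2, a kinase that protein kinase A switches off, fell in lines (−1.72), secondary tumours (−1.33) and primary tumours (−1.40). The regulatory subunit gene Prkar2b fell in secondary (−1.89) and primary tumours (−1.95), and the receptor kinase Grk5 in primary tumours (−1.86). The adenylyl cyclase Adcy7 rose by 2.29 in secondary and 2.01 in primary tumours, and Hdac4, a histone deacetylase of this pathway, by 1.84 and 1.57. The guanine nucleotide binding protein gene Gna12 rose by 1.13 in secondary tumours. Endothelial cells also express Ramp2, and the part of the differing cell mixture was not tested.

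Between lines and primary tumours, 3 of the 30 PTH signalling genes rose and 1 fell, and between lines and secondary tumours 1 rose and 2 fell, where 11.9% (4.77% higher, 7.08% lower) and 13.4% (4.83% higher, 8.55% lower) of all genes were called. Arrb1, the arrestin that uncouples G-protein-coupled receptors, fell by 1.43 (limma adjusted p = 1.57e-05) and 1.59 (adjusted p = 0.000118) in the lines. Of 21 genes that PTH induces in bone, 1 rose and 2 fell in lines, 2 rose and 3 fell in secondary tumours, and 3 rose and 3 fell in primary tumours against osteoblasts. The shares of all genes called against osteoblasts were 1.54% higher and 6.47% lower in lines, 7.85% and 10.9% in secondary tumours and 6.63% and 11.9% in primary tumours. Against primary tumours the lines had 2 of the PTH-induced genes higher and 1 lower, and against secondary tumours 3 higher and 1 lower. The Wnt ligand Wnt4 rose by 2.63 in secondary tumours (limma adjusted p = 6.86e-05) and 2.48 in primary tumours (adjusted p = 8.31e-06). The growth factor Igf1 (−3.27, limma adjusted p = 0.00927) and Rgs2, which shortens G-protein signals (−2.83, adjusted p = 0.00278), fell in lines against osteoblasts. The lists thus held genes of both directions, as did all genes, and their counts were not tested against those shares.

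Of 7 measured FGF ligands, Fgf1 fell in lines, Fgf7 fell in secondary tumours and Fgf7 and Fgf18 fell in primary tumours, all against osteoblasts, where 6.47%, 10.9% and 11.9% of all genes were called lower. Fgf7, a ligand that mesenchymal cells make for the epithelial form of Fgfr2, differed by −1.41 in lines (limma adjusted p = 0.106), −2.73 in secondary tumours (adjusted p = 0.000544) and −3.09 in primary tumours (adjusted p = 1.01e-05). It was 1.69 higher in lines than in primary tumours (adjusted p = 0.00237). Fgf18, a ligand of bone and cartilage, fell by 1.46 in primary tumours (adjusted p = 0.00455) and did not pass in secondary tumours (adjusted p = 0.105) or lines (−0.12, adjusted p = 0.911). Fgf18 was also called higher in lines than in primary tumours, but not with pairing by number (0.79) or without line 179 (0.93). Fgf1 fell by 1.28 in lines (adjusted p = 0.00165), though by 0.73 as the mean of its probe sets. The differences of Fgf2, Fgf4, Fgf9 and Fgf10 against osteoblasts lay between −0.99 (Fgf10 in lines) and 0.85 (Fgf2 in secondary tumours) and did not pass in any of the 3 groups. Fgf1 was called lower in lines than in primary tumours (−1.26), but not as the mean of its probe sets (−0.61), with pairing by number (−1.18) or without line 213 (−0.98). Fgf10 was called lower in lines than in secondary tumours (−1.17), but not with the floor at the 40th percentile (−0.55), after quantile normalization (−0.93), with the control set as a covariate (−0.48) or without line 179 (−0.91).

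Of 12 measured FGF receptors and coreceptors other than Fgfr2, 2 rose in lines, 4 rose and 1 fell in secondary tumours and 4 rose and 1 fell in primary tumours against osteoblasts, beside 1.54%, 7.85% and 6.63% of all genes called higher and 6.47%, 10.9% and 11.9% called lower. Fgfr3, the receptor that restrains growth of cartilage, was 6.27 ± 0.90 in lines, 9.48 ± 0.19 in secondary tumours and 9.12 ± 0.98 in primary tumours, against 7.03 ± 0.22 in osteoblasts (SD of log2 intensity). It was higher in secondary tumours (2.45, SE 0.614, limma adjusted p = 0.00276) and primary tumours (2.09, SE 0.508, adjusted p = 0.00161), and differed by −0.75 in lines (adjusted p = 0.469). Lines differed by −3.21 from secondary tumours (limma adjusted p = 0.000158) and by −2.85 from primary tumours (adjusted p = 2.7e-05). Fgfr1 differed by 0.04 in lines, 1.14 in secondary tumours and 0.85 in primary tumours, and none passed (limma adjusted p = 0.979, 0.0619 and 0.0839). Fgfr4 was called in lines (1.06, adjusted p = 0.00334), but not with only both groups in the fit (adjusted p = 0.0765) or without line 213 (0.74). Fgfrl1, a receptor without a kinase domain, differed by −0.99, −0.85 and −0.92 in lines, secondary and primary tumours (adjusted p = 1.77e-06, 5.47e-06 and 5.81e-08), under the 2-fold minimum. The glypican Gpc1, a heparan sulfate proteoglycan of the cell surface, rose by 2.93 in secondary and 2.52 in primary tumours, and the syndecan Sdc3 by 1.97 and 1.40. Sdc4 rose by 1.86 in primary tumours and was called in secondary tumours (1.29), but not as the mean of its probe sets (0.49), with no filter, without any one osteoblast culture (adjusted p = 0.0549 to 0.113) or without secondary tumour 29 (1.15) or 64 (1.21). Gpc1 was called in lines too (1.28, adjusted p = 0.0476), but not with no filter on dim signals (adjusted p = 0.0735), without line 176, 179 or 182 (1.12, 1.34 and 1.15) or without any one osteoblast culture (1.25 to 1.32). The gene that fell was Sdc2 in primary tumours and Gpc4 in secondary tumours. The call of Sdc2 was lost after quantile normalization (−0.88) and with primary tumours of control set 1 alone (−0.90). That of Gpc4 was lost after quantile normalization (−0.77), as the mean of its probe sets (−0.64) and without osteoblast culture 1 (−0.98). It was also lost without secondary tumour 29 (−0.89) or 66 (−0.98). Of the 12, 4 (Fgfr3, Gpc1, Gpc3 and Sdc3) were called lower in lines than in primary tumours and 3 (Fgfr3, Gpc1 and Sdc3) lower than in secondary tumours, and 0 higher, beside 7.08% and 8.55% of all genes called lower. Pairing by number, which kept only lines 176, 179 and 182 and their same-numbered primary tumours, ended all 4 calls against primary tumours. The values were −2.39 for Fgfr3, −1.08 for Gpc1, −1.84 for Gpc3 and −0.83 for Sdc3 (limma adjusted p = 0.0821, 0.108, 0.0606 and 0.342). The control set as a covariate ended the calls of Gpc1 (−0.87) and Sdc3 (−0.82) against primary tumours, and of Gpc1 (−0.86) and Sdc3 (−1.12) against secondary tumours. Both calls of Sdc3 were also lost as the mean of its probe sets (−0.58 and −0.97). Against primary tumours Sdc3 was lost with 75th percentile scaling (−0.97), without line 179 (−0.98) or 213 (−0.82) and without primary tumour 64, 119 or 179. Primary tumours of control set 1 alone ended the call of Gpc3 (−0.92), and those of control set 3 alone ended those of Gpc1 and Sdc3.

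Of 19 measured genes of FGF receptor signalling inside the cell, limma called 0 in each of the 6 comparisons at the adjusted p and 2-fold rule. At an unadjusted p under 0.05, 5 of them differed in lines, 7 in secondary tumours and 7 in primary tumours against osteoblasts, 11 in lines against primary tumours, 11 in lines against secondary tumours and 1 in secondary against primary tumours. The shares of all 12887 genes at that p were 28.8%, 44.4%, 50.2%, 46.5%, 41.8% and 9.27% in the same order. Of 12 genes listed as feedback inhibitors, 1 fell in lines, 4 fell in secondary tumours and 4 fell in primary tumours against osteoblasts, beside 6.47%, 10.9% and 11.9% of all genes. The list includes Flrt2 and Flrt3, which are not established as inhibitors, and the fall in lines was that of Flrt2. Flrt2, a membrane protein that binds FGF receptors, fell in secondary tumours (−5.37, SE 0.833, limma adjusted p = 2.36e-05) and in primary tumours (−4.18, SE 0.690, adjusted p = 2.85e-05). In lines it fell by 2.56 (adjusted p = 0.0428), a call lost with 75th percentile scaling (−2.38), quantile normalization (−2.19), no filter or only both groups in the fit, without cell line 176 (−1.58) or without any one osteoblast culture (−2.52 to −2.59). The phosphatase Dusp4, which switches off MAP kinases, fell in secondary (−1.76) and primary tumours (−2.12), as did Il17rd, also known as Sef (−1.72 and −1.96), and Spry2 fell in primary tumours (−1.48). Spry2 was called in secondary tumours too (−1.10, adjusted p = 0.0304), but not with no filter, without any one osteoblast culture (−1.07 to −1.15) or without secondary tumour 66 (−0.90). Spry1, Spry4, Spred1, Spred2, Dusp5, Dusp6, Lrig1 and Flrt3 were not called against osteoblasts in any group, with differences between −0.87 and 1.43. In lines against primary tumours 4 of the 12 rose, namely Dusp4 (1.64, limma adjusted p = 0.000957), Il17rd (1.91), Spry2 (1.31) and Flrt2 (1.62), and Dusp6 fell (−1.29). Pairing by number ended the calls of Il17rd (1.65), Spry2 (1.43), Flrt2 (1.27) and Dusp6 (−0.96). The control set as a covariate ended that of Flrt2 (1.40) and Dusp6 (−0.89), and that of Flrt2 was also lost with no filter, with only both groups in the fit and without line 179 (1.33), 182 (1.32) or 213 (1.23). Against secondary tumours, Dusp4 (1.28), Il17rd (1.67), Flrt2 (2.81), Dusp6 (−1.34) and Spred1 (−1.03) were called in lines, and the control set as a covariate ended all 5 calls (0.83, 1.31, 2.34, −0.48 and −0.67 in the same order). That of Dusp4 was lost in 6 of 18 alternatives (without line 213 it was 0.94, and without secondary tumour 29, 66 or 94 it was 1.25, 1.22 and 1.10), and that of Spred1, close to 2-fold, in 7 of 19, among them without line 213 or secondary tumour 29 or 94. Of 11 FGF-induced transcription factors, 1, 2 and 4 fell in lines, secondary and primary tumours against osteoblasts and 0 rose, again beside 6.47%, 10.9% and 11.9% of all genes called lower. Etv5, an ETS factor, fell by 1.32 in secondary and 1.39 in primary tumours, and the cyclin Ccnd1 by 1.64 in primary tumours.

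**Figure D5:**
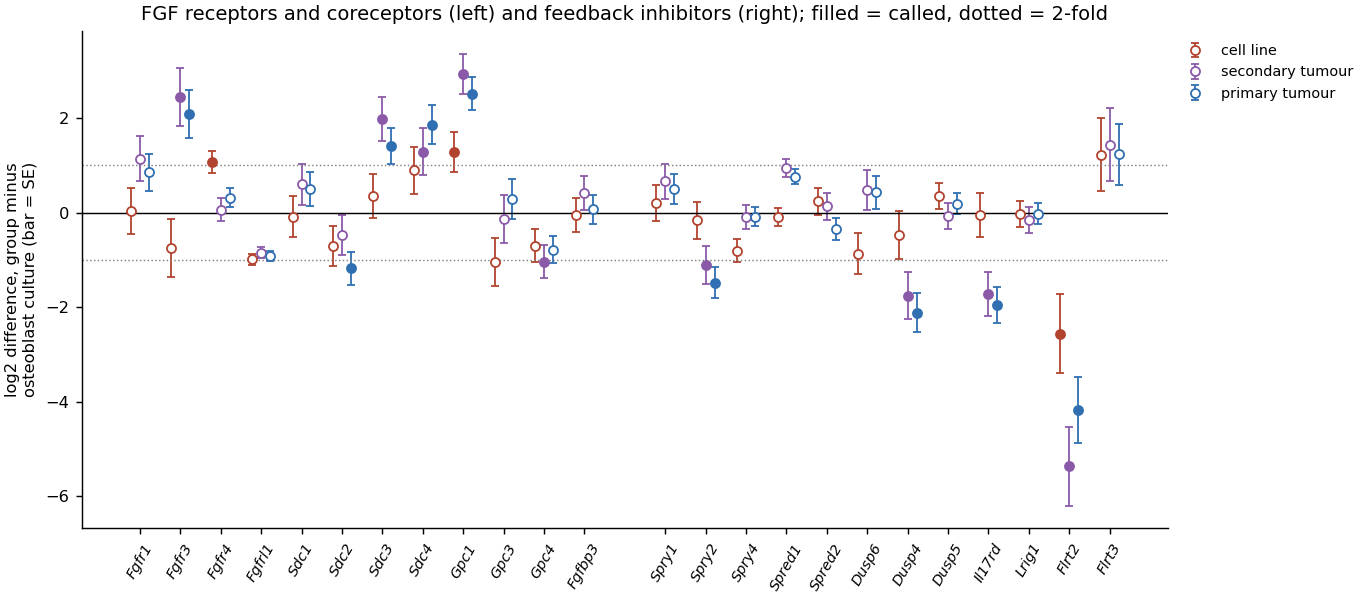
Log2 difference from osteoblast cultures (vertical axis, bars are limma's SE) of 12 FGF receptors and coreceptors and 12 genes listed as feedback inhibitors, in lines, secondary and primary tumours; filled points were called and dotted lines mark 2-fold. Fgfr3, Sdc3, Sdc4 and Gpc1 stand above 2-fold in both kinds of tumour, and Spry2, Dusp4, Il17rd and Flrt2 below it.

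Pth1r and Fgfr2 were last set beside other receptors of bone cells. Of 34 measured, 5 fell in lines, 5 rose and 8 fell in secondary tumours and 2 rose and 9 fell in primary tumours against osteoblasts. Of all genes, 6.47% were called lower in lines, 7.85% higher and 10.9% lower in secondary tumours and 6.63% higher and 11.9% lower in primary tumours. Pth1r is not in this list. Npr3, the clearance receptor for natriuretic peptides, fell in lines (−2.79, limma adjusted p = 0.000779), secondary tumours (−5.57, adjusted p = 2.02e-08) and primary tumours (−5.10, adjusted p = 1.85e-09). The oncostatin M receptor Osmr fell in secondary (−4.14) and primary tumours (−3.54), and so did the TGF-β coreceptor Tgfbr3 (−4.13 and −3.51). The insulin-like growth factor receptor Igf1r rose by 2.74 and the growth hormone receptor Ghr fell by 1.98 in secondary tumours. The oestrogen receptor Esr1 fell by 2.42 in primary tumours, and the Wnt coreceptor Lrp6 by 1.60 in lines. The Wnt receptor Fzd2 was 1.43 higher in lines than in primary tumours. The leptin receptor Lepr was higher in primary tumours (3.35, limma adjusted p = 0.00469), and lines differed from primary tumours by −3.74 (adjusted p = 0.000862). Against primary tumours 3 of the 34 rose and 6 fell in lines, and against secondary tumours 3 rose and 10 fell, beside 4.77% and 7.08%, and 4.83% and 8.55%, of all genes. Osteoblast identity genes other than the receptors gave these counts: 0 rose and 2 fell of 17 in lines, 4 rose in secondary and 4 in primary tumours against osteoblasts, and 7 fell in lines against primary tumours. The shares of all genes called in these directions were 1.54%, 6.47%, 7.85%, 6.63% and 7.08%. Between secondary and primary tumours limma called 0 genes of each pathway list, and at most 3 of a list passed an unadjusted p of 0.05, beside 9.27% of all genes.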

How the data were processed

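Each of the 26 samples was measured on its own oligonucleotide expression array. The authors deposited linear intensities, per the values themselves, and how probes were summarised and scaled is not given in the sources used here. All 64 control probe sets were left out. Intensities under the 20th percentile of all values (12.5) were set to it and log2 was taken of the deposited intensity. limma 3.58.1 in R 4.3.3 (lmFit, eBayes) fitted all 4 groups over 27308 probe sets, with Benjamini-Hochberg adjustment over all of them, and a call needs an adjusted p under 0.05 and 2-fold. Python 3.11.15 with scipy 1.17.1 ran the exact and permutation tests (100000 resamples). Of 45101 probe sets, 34958 carry 1 gene symbol, 932 several and 9211 are unnamed here, and 34754 matched a RefSeq gene. A gene's leading probe set has the highest mean log2 intensity among its probe sets that passed the filter. The number of arrays limits the precision.

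The members, 9 pathway lists and 11 marker lists were chosen with earlier results of these data known. Values are given for every probe set of both receptors, for ligands, related receptors and feedback inhibitors, for the 5 genes most like each receptor, and for genes among the 4 largest called changes of a list in each direction. The last rule gave 126 calls, of which 58 were kept under all alternatives tried. Ligands, related receptors and coreceptors and feedback inhibitors are given whether or not their calls were kept, and the examples of other lists are taken from these 58. The secondary tumours pair with primary tumours by number: the correlation of their deviations from the group means was 0.392, 0.335, 0.233 and 0.625, each the highest of all primary tumours. Alternatives covered the floor, the filter, the scaling, the groups fitted, array weights, probe set choice, pairing, control set and each array left out. Leaving out primary tumours, the control set covariate for lines against secondary tumours, and single control sets for the probe set tests were added after the data were seen. The limma step was tested on simulated data.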

Additional observations from a re-analysis of the deposited data

How the results depend on the processing

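Pth1r kept its calls in lines against primary tumours (33 alternatives, −2.75 to −2.13), lines against secondary tumours (19, −2.49 to −1.85) and primary tumours against osteoblasts (30, 1.50 to 1.83), as did leading Fgfr2 in lines against primary tumours (33, −1.91 to −1.17). Pth1r in secondary tumours against osteoblasts gave 0.98 to 1.63 when 1 array was left out. Leading Fgfr2 in lines against secondary tumours gave −1.87 to −1.13 when 1 array was left out, −1.27 with 75th percentile scaling, −1.43 with only both groups fitted and −1.31 with the control set as covariate. Between secondary and primary tumours, leaving out 1 array gave −0.57 to 0.0735 for Pth1r and −0.30 to 0.18 for leading Fgfr2, the mean of the Fgfr2 probe sets 0.20, primary tumours of control set 3 alone 0.0199, probe set 1420847_a_at 0.39 and 1443211_at 0.25. Taking 1443211_at in place of the leading Fgfr2 probe set gave −0.0823 in lines, 1.24 in secondary and 1.00 in primary tumours against osteoblasts, and 1420847_a_at gave −1.65 in primary tumours. For 1443211_at, lines against osteoblasts gave 0.14 with the floor at the 40th percentile, 0.10 with 75th percentile scaling and −0.27 to 0.14 when 1 array was left out, and secondary against primary tumours gave −0.11 with the replicate block, −0.0637 with the control set as covariate and −0.0637 within control set 1. Fgfr2 with the mineralisation list had r = −0.0369 after quantile normalization, against 0.0025. The cause of these changes was not tested.

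The probe set tests, with 1 array left out, gave for 1420847_a_at −0.46 to −0.33 in lines against osteoblasts, 0.28 to 0.38 in lines and 0.29 to 0.50 in secondary tumours against primary tumours and −0.18 to 0.0263 in lines against secondary tumours. For 1443211_at they gave 1.89 to 2.57 in lines and 2.03 to 2.34 in secondary tumours against osteoblasts, −0.0350 to 0.64 in lines against primary and −0.32 to 0.36 in lines against secondary tumours. With fewer arrays, the tests of 4 against 3 cannot pass.

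Called probe sets numbered 2008 in lines, 6241 in secondary and 6053 in primary tumours against osteoblasts, 4180 in lines against primary, 4806 in lines against secondary and 2 in secondary against primary tumours. A filter at the 75th percentile, which tests fewer probe sets, left 1328, 3609, 3543, 2417, 2689 and 1. The control set as covariate gave 2060 in lines against secondary tumours. Secondary against primary tumours gave 1 with the floor at the 40th percentile, 4 with only both groups fitted and 5 with the covariate. It gave 2 to 4 when 1 array was left out, and 12 and 746 with primary tumours of control sets 1 and 3 alone. All secondary tumours are in control set 1, so with control set 3 alone group and control set cannot be told apart. The share of calls that were higher was 20.9% in lines against osteoblasts, 29.5% in lines against primary and 26.5% in lines against secondary tumours. Quantile normalization made it 31.4%, 39.9% and 41.4%, and 75th percentile scaling 38.7%, 36.0% and 39.8%. That scaling moved the median of all probe sets in lines against osteoblasts to 0.11, from −0.06.

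The replicate block by number gave −2.25 for Pth1r and −1.83 for leading Fgfr2 in lines against primary tumours, and −0.62 and −0.05 in secondary against primary tumours, and ended or made no call of the leading probe sets of both receptors. It ended the calls of Fgfr2 1420847_a_at (−1.65) and 1443211_at (−0.78) in lines against primary tumours. It left 2389 calls in lines against primary tumours and 4 in secondary against primary tumours. Lines were matched to primary tumours by number. Deviations of 176, 179 and 182 correlated with those of the same-numbered primary tumours at 0.0471, 0.0471 and 0.0165, each at rank 6 among the primary tumours. Medians for the other primary tumours were 0.0323, 0.00623 and 0.0122. Whether the lines came from the same-numbered tumours was not tested. The block for lines held only these numbers, so pairing and fewer arrays cannot be told apart.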
